A study of Rattus norvegicus with 102 samples.

Results

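The protein-coding genes of the cytosolic ribosome were followed across hippocampal subfields, age and spatial memory. Members were all protein-coding rows whose symbol begins with Rpl or Rps followed by a digit or by p, with the S6 kinase genes (Rps6k) left out. This rule took 125 of 26284 annotated rows in the Illumina and WT tables and the same 125 of 26341 rows in the IonProton table. The 125 rows, called entries here, carried 101 symbols: 74 entries of large-subunit proteins, 45 of small-subunit proteins, 4 of the stalk proteins Rplp0, Rplp1 and Rplp2, the Rpl7-like gene Rpl7l1, and Rps19bp1, which shares the prefix but encodes a Sirt1-binding protein. The rule reads names alone and uses no measured value.

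Male Fisher 344 rats (the spelling of the labels, Fischer 344 in the study's methods) gave the tissue, with no transgene or drug in any group. The 10 young rats (suffix Y) were 5 to 6 months old. The 24 aged rats were 17 to 22 months old and had been split on a water maze probe trial into 12 with unimpaired memory (suffix OG) and 12 with impaired memory (suffix OB). CA1, CA3 and dentate gyrus (DG) were dissected from each rat, so each of the 3 deposited tables held 1 library for each of the 34 rats and each subfield. The tables were poly-A RNA on the Illumina platform, poly-A RNA on the Ion Proton platform, and a table named WT whose library type is not given in the sources used here. The median library held 10.7 M reads (range 3.25 to 42.8) in the Illumina table, 9.74 (4.47 to 21.4) in IonProton and 8.07 (3.54 to 20.6) in WT. Values below are normalised reads, that is, reads divided by a size factor of the library, and each table was tested on its own.

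Dissected tissue is a mixture of cells, and in such bulk samples fewer cells of a type cannot be told apart from less RNA per cell. By their CA1, CA3 and DG marker genes, 13 libraries lay nearest to a subfield other than the labelled one in both poly-A tables: 1 labelled CA1, 7 labelled CA3 and 5 labelled DG. Of 5 tested CA3 markers, 1 was higher and 1 lower in CA3 than in DG in Illumina (adjusted p under 0.05, median log2 -0.19). The CA3 list therefore parts CA3 from DG poorly, which limits what nearness to either means. The 13 libraries came from 10 rats, 8 of which carry numbers from 9000 up. In all 3 tables the CA3 library of R9781 lay nearest to DG and its DG library nearest to CA3. The CA1 library of R9869 lay nearest to DG and its DG library nearest to CA1, also in all 3. Whether libraries were exchanged was not tested. The rats fall into 2 number series, 18 below 9000 (5 Y, 6 OG and 7 OB) and 16 from 9000 up (5 Y, 6 OG and 5 OB). The study characterised rats at 2 sites, whose numbers of young and of aged rats equal those of the 2 series. The labels do not tie a rat to a site. The main subfield results are also given within each number series.

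Ribosomal proteins are made in near-equal amounts and assembled with ribosomal RNA into a small subunit, which reads the messenger RNA, and a large subunit, which joins amino acids. Their messenger RNAs are among the most abundant of most cells, including neurons, where ribosomes in dendrites and axons make proteins near synapses. Vertebrate ribosomal protein genes characteristically begin transcription within a run of pyrimidines, the 5′ terminal oligopyrimidine tract, through which mTORC1 signalling sets how well the messenger RNA is translated. Most of these genes have many processed copies scattered over the genome, and short reads from one can align to another.

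The start sites of members that the comparisons below turn on are shown to illustrate that tract. RefSeq promoters (GRCr8) matched 65 of the 125 entries by symbol and chromosome and gave 63 distinct promoters. Each sequence is 30 bases on the gene's strand, 10 before the annotated start and 20 from the start base on. Capitals mark an unbroken run of at least 5 bases, each C or T, that covers the start base.
Rplp0 (chr12:46718371-46718400, minus strand): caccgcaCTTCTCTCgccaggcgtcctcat
Rplp1 (chr8:71290853-71290882, minus strand): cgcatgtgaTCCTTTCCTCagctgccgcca
Rps15 (chr7:10068096-10068125, minus strand): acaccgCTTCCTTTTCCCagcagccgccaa
Rps18 (chr20:4933735-4933764, plus strand): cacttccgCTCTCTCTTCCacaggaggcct
Rps3a (chr2:173827023-173827052, minus strand): gtacttccgCCCTTTTggctctcagagcgg
Rpl37 (chr2:55942935-55942964, plus strand): ggcgtaCTTTCTCTTCCggtctctttggcc
Rpl23 (chr10:83272165-83272194, minus strand): cttcctttctgactctttccggacgctcaa
Rps3 (chr1:163195757-163195786, minus strand): ttcagcggcgcgcggcagcaagatggcggt
Rpl7l1 (chr9:21695708-21695737, plus strand): cagatgcattgtgggaagcctttaactcgt
The run was 12 bases long at Rps15, 11 at Rps18 and at Rpl37, 10 at Rplp1, 8 at Rplp0 and 7 at Rps3a. No run covered the annotated start of Rpl23, Rps3 or Rpl7l1. It covered the start in 36 of the 63 member promoters (57.1%), against 12.0% of all 33469 promoters in the table, searched on the gene's strand only. A start base C followed by at least 4 more pyrimidines was found in 21 member promoters (33.3%) and in 2.63% of all promoters. The annotated starts come from reference transcripts and not from these libraries, so a match is a description of the reference.

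The tables disagreed about where a ribosomal protein's reads lie. With Illumina, 71 entries averaged over 100 normalised reads per library. Of these 71, 67 had a lower mean in IonProton, with a median ratio of IonProton to Illumina of 0.184, against 0.835 for the 10282 other coding genes over 100 normalised reads. The remaining 54 entries averaged under 100 in Illumina, and 48 of them were higher in IonProton, 42 by over 10 times. Over the 71 entries the median WT to Illumina ratio was 0.574. The tables were normalised apart, and no ratio of other genes was set beside this one. Summed CA1 medians of other lists were also lower in WT, at 39649 against 77598 for astrocyte and 48836 against 77442 for neuronal markers. The poly-A tables were aligned with different programs, and the part of alignment in these differences was not tested.

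The pattern was plainest for symbols with several entries. After entries marked as pseudogene copies (-ps) were joined to their parent symbol, 18 symbols held 50 entries, and the entry with most reads differed between Illumina and IonProton for 11 of the 18, but between Illumina and WT for 1. Rplp1, one of the acidic stalk proteins that recruit elongation factors, averaged 2484 ± 441 normalised reads (SD, all libraries) at its chromosome 8 entry and 18.3 ± 5.88 at its chromosome 17 entry in Illumina. In IonProton the same entries averaged 1609 ± 900 and 3146 ± 1028. Rps27a, made as a fusion with ubiquitin, had 98.8% of its Illumina reads on chromosome 14 and 1.21% on chromosome 5, while its IonProton mean was 48.1 ± 15.1 on chromosome 14 and 1458 ± 378 on chromosome 5. Rpl32, a large-subunit protein, had 96.7% of its Illumina reads on chromosome 4, where IonProton averaged 87.3 against 1048 on chromosome 6. Rpl37, also of the large subunit, averaged 20.3 in IonProton on chromosome 2 and 885 on chromosome 10, with 97.0% of the Illumina reads on chromosome 2. Values of a single entry therefore cannot be read as the level of its gene in either table, and entries of these symbols are treated as uncertain.

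Some core genes were almost unread in the Illumina and WT tables. Rps6, the small-subunit protein phosphorylated by S6 kinases, averaged 1.79 ± 1.28 normalised reads in Illumina, 0.0285 in WT and 197 ± 47.9 in IonProton. Rps9 averaged 4.55 in Illumina and 86.1 in IonProton, Rpl8 averaged 1.85 and 53.5, and Rps19, the gene mutated most often in Diamond-Blackfan anaemia, averaged 0.307 and 8.03. Rps16 stood apart the other way, at 3243 ± 473 in Illumina, 1142 ± 439 in IonProton and 243 in WT. The tables place Rpl10 on chromosome 1 and Rps4x on chromosome 4, whereas the GRCr8 annotation has both on chromosome X.

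A filter at a mean of 10 normalised reads left 83 of the 125 entries in Illumina (44 large-subunit, 33 small-subunit and 4 stalk entries, with Rpl7l1 and Rps19bp1), 116 in IonProton and 81 in WT, and 82 passed in both poly-A tables. The 42 entries left out in Illumina had a median mean of 0.913 there and 31.5 in IonProton. Among the tested entries the highest Illumina means were those of Rpl3, which lines the peptidyl transferase centre (5217 ± 468), Rpl4 of the polypeptide exit tunnel (5194 ± 459) and Rplp0, the stalk base (4225 ± 400). The lowest were Rps27a on chromosome 5 (16.3 ± 5.51), Rplp1 on chromosome 17 and Rpl38 on chromosome 8 (11.9 ± 5.94). Reads were not divided by gene length, so this order is one of reads and not of transcripts. Paralogs known mainly from other tissues were low in Illumina: muscle Rpl3l averaged 6.10 ± 2.38 and the testis forms Rpl10l and Rpl39l averaged 9.71 ± 4.71 and 1.33 ± 1.78. Rpl22l1, the paralog of Rpl22, averaged 529 ± 77.2, and Rps27l, the paralog of Rps27 and a p53 target, 85.2 ± 12.9.

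**Figure D1:**
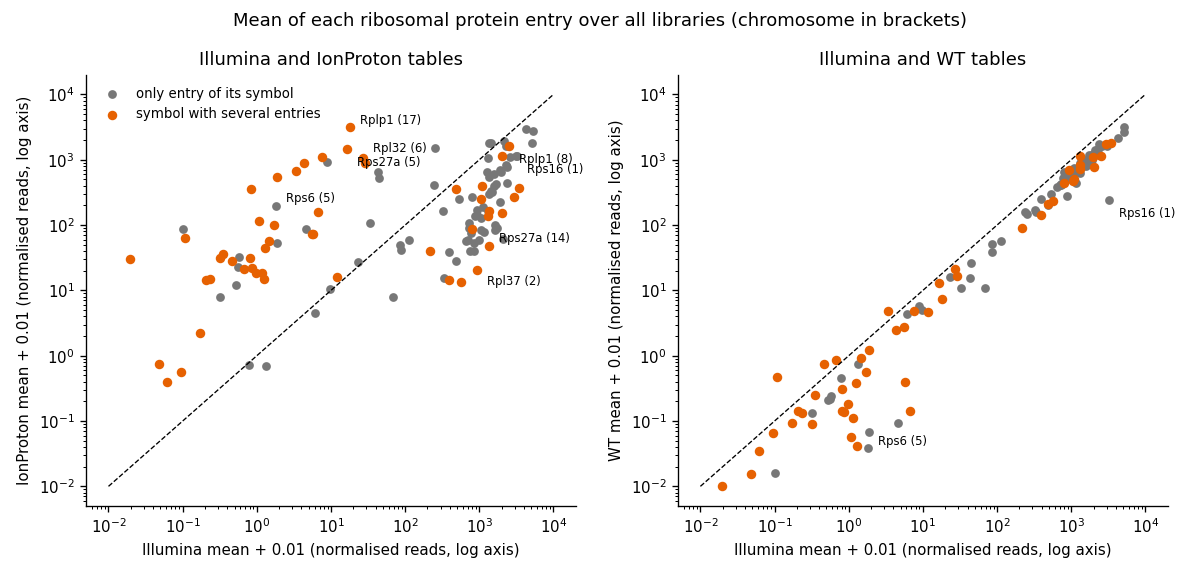
Each point is 1 of the 125 entries, with its mean over all libraries in the Illumina table on the horizontal axis and in the IonProton (left) or WT (right) table on the vertical axis, in normalised reads plus 0.01 on log axes. The dashed line marks equal means, and orange points are entries of the 18 symbols that hold several. In the left panel 42 entries under 100 in Illumina lie over 10 times higher in IonProton, such as Rplp1 on chromosome 17 and Rps6, while in the right panel Rps16 lies far under the line.

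Together the entries held 0.814% of all reads in Illumina, 0.503% in IonProton and 0.769% in WT. In Illumina the share ranged from 0.717% to 1.04% over the 34 CA1 libraries (median 0.834%), from 0.454% to 0.970% in CA3 (median 0.771%) and from 0.681% to 0.924% in DG (median 0.761%). CA1 exceeded CA3 within 26 of 34 rats and DG within 28 of 34. In WT the medians were 0.797%, 0.764% and 0.737%, with CA1 above CA3 in 27 rats and above DG in 26. In IonProton they were 0.496%, 0.474% and 0.494%, with CA1 above CA3 in 20 rats and above DG in 21. The ranges of the subfields overlapped in every table.

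The share of a subfield also moved with the number series. In CA3 it had an Illumina median of 0.748% in the 18 rats below 9000 and 0.865% in the 16 from 9000 up, and an IonProton median of 0.425% and 0.580%. In Illumina CA1 exceeded CA3 in 17 of the 18 lower-numbered rats and in 9 of the 16 others. In IonProton these counts were 16 of 18 and 4 of 16. In DG the medians of the series were 0.761% and 0.766% in Illumina, 0.475% and 0.517% in IonProton and 0.725% and 0.796% in WT. Without the libraries nearest to another subfield, the CA3 range ran from 0.656% to 0.970% in Illumina.

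By age and memory the shares overlapped throughout. In Illumina CA1 the medians were 0.831% in Y, 0.825% in OG and 0.851% in OB. In CA3 they were 0.788%, 0.810% and 0.762%, and in DG 0.774%, 0.760% and 0.751%. The lowest Illumina share, 0.454%, belonged to the CA3 library of the OB rat R9875, which by its markers lay nearest to CA1 in both poly-A tables. In IonProton CA3 the medians were 0.516% in Y, 0.545% in OG and 0.455% in OB, and in WT CA3 0.740%, 0.765% and 0.768%.

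**Figure D2:**
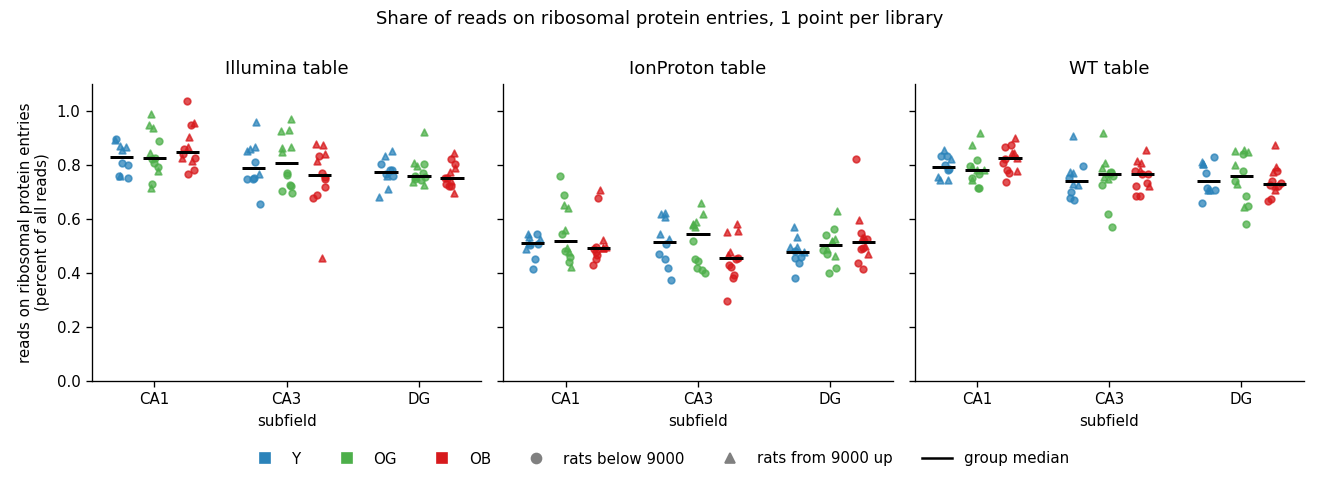
The vertical axis gives the percent of a library's reads on the 125 entries, for each subfield and table, with 1 point per library, colours for Y, OG and OB, circles for rats below 9000, triangles for rats from 9000 up, and bars for group medians. The points of the 3 groups overlap in each subfield, and most triangles sit above most circles in Illumina and IonProton CA3, where the series medians were 0.865% and 0.748%, and 0.580% and 0.425%.

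A rat's share in one table was partly recovered in the other. Over the 34 rats, Illumina and IonProton shares had a Pearson r of 0.57 (Spearman rho 0.57) in CA1, 0.57 (0.74) in CA3 and 0.28 (0.37) in DG. Illumina and WT shares had r of 0.21, 0.37 and 0.27. Within the lower number series the Illumina and IonProton r was 0.40, 0.39 and -0.17, and within the upper series 0.82, 0.22 and 0.92. Between subfields of the same rat the Illumina r was 0.44 for CA1 and CA3, 0.28 for CA1 and DG and 0.20 for CA3 and DG. Libraries of a rat share its tissue and RNA, and these values are descriptions. Without the 2 rats farthest from the median Illumina share, r was 0.45, 0.78 and 0.10 between Illumina and IonProton.

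Members varied together. The median correlation of log2 values between pairs of the 83 tested entries, over the 34 libraries of a subfield, was 0.71 in Illumina CA1, 0.79 in CA3 and 0.50 in DG. The mean over pairs was 0.61, 0.69 and 0.42, against 0.001 or 0.002 between pairs of the other tested genes. In WT the mean over pairs was 0.37, 0.37 and 0.29, and in IonProton 0.12, 0.21 and 0.17. The other genes were not matched to the entries by level, and positive and negative correlations cancel in their mean. It therefore does not show whether another set of well-read genes would vary together as much. The points share libraries, depth and tissue composition, so these too are descriptions.

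The first comparison asked which members differ between subfields, whatever the age. It was made with limma on log2 of the normalised reads plus 1, over all libraries of a table. A call needed a Benjamini-Hochberg adjusted p under 0.05, over all tested genes, in both Illumina and IonProton and in the same direction. Few members passed. Between CA1 and CA3, 3 of 83 were called, all higher in CA1 (Rps3, Rpl30 and Rps3a), where 14.1% of the 14179 tested genes were called, 7.12% higher and 6.95% lower in CA1. Between CA1 and DG, 7 were called, 6 higher and 1 lower in CA1, against 26.4% of genes, 13.1% higher and 13.2% lower. Between CA3 and DG, 1 was called, lower in CA3, against 27.9% of genes.

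In the Illumina table alone the direction was one-sided. CA1 exceeded CA3 in 77 of 83 entries (median log2 difference 0.092, all genes 0.006), and 27 were higher and 1 lower at adjusted p under 0.05. Of all genes 35.4% passed, 18.3% higher and 17.1% lower. CA1 exceeded DG in 80 of 83 (median 0.15, all genes 0.003), with 63 higher and 2 lower, against 55.6% of genes, 29% higher and 26.7% lower. CA3 exceeded DG in 64 of 83 (median 0.074, all genes 0.010), with 23 higher and 3 lower, again against 55.6%, 28.9% higher and 26.7% lower. With library-total scaling 13 entries passed between CA3 and DG (56.1% of genes), and 42 did without the libraries nearest another subfield (60%). In WT the medians were 0.090, 0.098 and 0.017, with 26, 33 and 7 entries higher and 0, 0 and 9 lower at adjusted p under 0.05. Of all genes 33%, 45.9% and 48.7% passed in WT, with 16.5%, 23.5% and 25.3% higher and 16.5%, 22.4% and 23.4% lower. In IonProton, over its own 116 entries, the medians were 0.094, 0.073 and -0.013, and 5, 12 and 3 entries were higher and 0, 2 and 5 lower, where 15.8%, 30.2% and 30.1% of genes passed. In that first IonProton comparison 7.73% of genes were higher and 8.05% lower in CA1. For CA1 against DG these shares were 15.4% and 14.8%, and for CA3 against DG 15.8% and 14.3%. Among the 82 entries tested in both poly-A tables, the sign was shared for 59, 49 and 36.

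**Figure D3:**
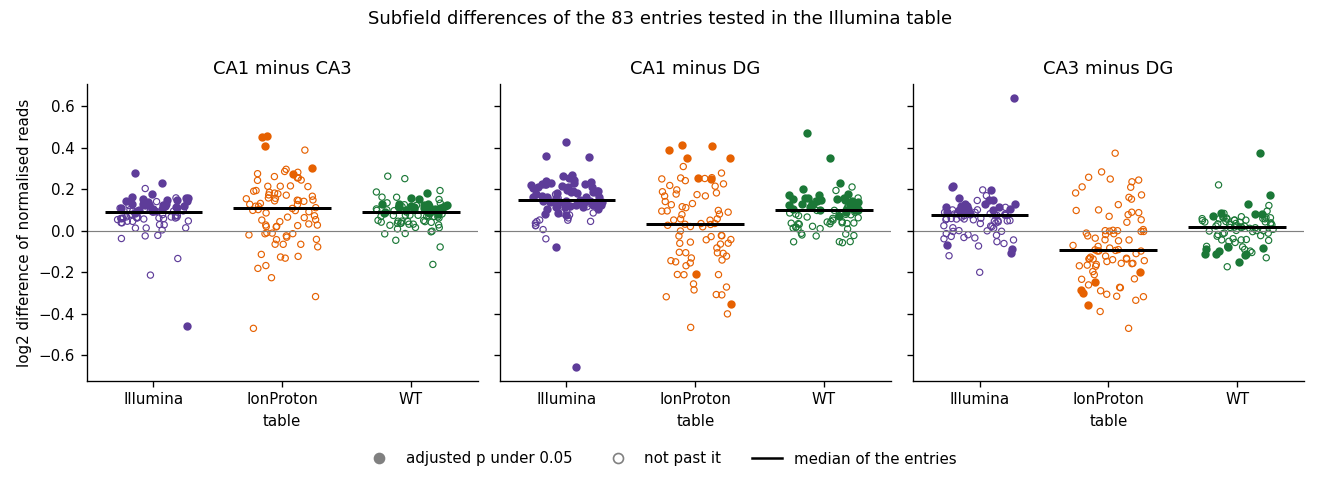
The vertical axis gives the log2 difference of normalised reads between subfields for the 83 entries tested in Illumina, as estimated in each table, where it was tested there. Filled points passed adjusted p of 0.05 in that table, and bars are medians. CA1 lies above CA3 and DG for most entries in Illumina and WT, while IonProton points scatter more widely, and the 1 Illumina point far above the rest in CA3 minus DG is Rps4y2 (0.64).

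Of the members called between CA1 and CA3, Rps3, which lines the messenger RNA entry channel, ranged from 2597 to 4151 normalised reads in CA1 (median 3201) and from 2072 to 3703 in CA3 (median 2938) in Illumina. The groups overlapped, but CA1 was higher in 29 of 34 rats in Illumina, 26 in IonProton and 28 in WT. The log2 difference was 0.16 (SE 0.036, adjusted p = 0.000295 by limma), with 0.41 (SE 0.11, adjusted p = 0.00573) in IonProton.

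Rps3a, another small-subunit protein, had a median of 1507 (range 1247 to 1995) in CA1 and of 1392 (904 to 1796) in CA3. It was higher in CA1 in 27 rats in Illumina and 24 in IonProton, by log2 differences of 0.12 (SE 0.042, adjusted p = 0.016) and 0.30 (SE 0.11, adjusted p = 0.0366) in limma. Rpl30, a large-subunit protein, had a median of 1103 (900 to 1601) in CA1 and 1014 (692 to 1338) in CA3, with log2 differences of 0.15 (SE 0.041, adjusted p = 0.00253) and 0.46 (SE 0.14, adjusted p = 0.0147) in limma. The ranges of CA1 and CA3 overlapped for both. Rpl3 passed in Illumina (log2 0.10, adjusted p = 0.00391) and not in IonProton (0.17, adjusted p = 0.10).

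The few members called between CA1 and DG came from both subunits. Rps15, in the head of the small subunit, averaged 2243 (1659 to 2859) in CA1 and 1912 (1602 to 2356) in DG, and was higher in CA1 in 32 of 34 rats in Illumina and 24 in IonProton. Its log2 differences were 0.23 (SE 0.046, adjusted p = 1.9e-05) and 0.41 (SE 0.15, adjusted p = 0.0262) in limma. Rps15 is among the symbols with several entries. Its copy Rps15-ps2 averaged 1.87 in Illumina and 543 in IonProton, so these values are of 1 entry and are uncertain as the level of the gene. Rpl37 was called at 2 of its 3 joined entries, so 1 symbol gave 2 of the 7 calls. On chromosome 2 it differed by 0.23 (SE 0.060) in Illumina and 0.41 (SE 0.16) in IonProton, and on chromosome 10 by 0.26 (SE 0.10) and 0.35 (SE 0.12). With its entries summed before the fit, the differences were 0.23 and 0.37 and the call remained. The other called members were Rpl23, at the interface of the subunits (0.14 and 0.26), Rps3a (0.14 and 0.39) and Rps18 of the small-subunit head (0.13 and 0.25). Each was higher in CA1 in 26 to 30 rats in Illumina and in 25 in IonProton.

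Rpl7l1 went the other way. This Rpl7-like protein, known from precursors of the large subunit, had the lowest spread of the tested entries in Illumina (CV 8.36%). It had a median of 319 normalised reads (276 to 371) in CA1, 323 (212 to 360) in CA3 and 337 (280 to 381) in DG. DG exceeded CA1 in 27 of 34 rats in Illumina and in 24 in IonProton, by log2 0.077 (SE 0.029, adjusted p = 0.0216) and 0.21 (SE 0.061, adjusted p = 0.00521) in limma. DG exceeded CA3 in 24 and 22 rats, by 0.11 (SE 0.029, adjusted p = 0.00155) and 0.20 (SE 0.061, adjusted p = 0.00796), and in WT by 0.15 (adjusted p = 0.00224). It was the only member called between CA3 and DG, and it was called in neither number series alone, with IonProton differences of -0.24 (SE 0.095) below 9000 and -0.16 (SE 0.081) from 9000 up. CA1 and CA3 differed by log2 0.028 (SE 0.029) in Illumina.

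In Illumina all 4 stalk entries were higher in CA1 than in DG at adjusted p under 0.05, where 29% of genes were. In IonProton 0 of the 4 passed by limma, with 2 at an unadjusted p under 0.05 and 2 below 0. Rplp1 on chromosome 8 had a median of 2688 (2039 to 4083) in CA1 and 2146 (1757 to 2900) in DG, a log2 difference of 0.36 (SE 0.048, adjusted p = 6.7e-10 by limma), with 0.35 (adjusted p = 2.7e-07) in WT. In IonProton it had a median of 1059 (667 to 4158) in CA1 and 1602 (666 to 5297) in DG, a log2 difference of -0.31 (SE 0.16, adjusted p = 0.14). With both Rplp1 entries summed, IonProton gave -0.21 (SE 0.11, adjusted p = 0.16), so summing did not bring the tables together. Rplp2 gave 0.22 (SE 0.056, adjusted p = 0.000462) in Illumina, 0.31 (adjusted p = 0.11) in IonProton and 0.23 (adjusted p = 0.0232) in WT. Rplp0 gave 0.12 (SE 0.030, adjusted p = 0.000376), 0.20 (adjusted p = 0.12) and 0.098 (adjusted p = 0.0146). In rats from 9000 up both Rplp0 and Rplp2 were called, with IonProton differences of 0.36 and 0.59, against 0.053 and 0.060 below 9000.

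Other members passed the threshold in Illumina and not in IonProton. Rps4y2, listed on chromosome 4, had a median of 28.1 (12.7 to 57.2) in CA3, 23.7 in CA1 and 15.7 (5.54 to 33.3) in DG, with a CA3 to DG log2 difference of 0.64 (SE 0.12, adjusted p = 3.5e-06 by limma) in Illumina, 0.37 (adjusted p = 0.0117) in WT and 0.26 (adjusted p = 0.50) in IonProton. Rpl38 on chromosome 8, a minor entry of its symbol, averaged 8.27 in CA1 and 14.4 in DG (log2 -0.66, SE 0.18, adjusted p = 0.00147). Rpl5l1 averaged 47.5 in CA1 and 39.8 in CA3 (log2 0.28, SE 0.077, adjusted p = 0.00266). Rps29, a zinc-binding small-subunit protein, gave 0.27 (SE 0.050, adjusted p = 2.79e-06) for CA1 against DG on chromosome 6 and 0.17 (adjusted p = 0.42) in IonProton. The paralog Rps27l gave 0.18 (SE 0.049, adjusted p = 0.00147) for CA1 against DG and 0.20 (SE 0.049) for CA3 against DG, and -0.15 and -0.31 in IonProton, neither past the threshold.

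Among the members that did not pass between any subfields in Illumina were Rpl22, Rpl22l1, Rpl36al, Rps19bp1 and the chromosome 5 entry of Rps27a. For Rpl22l1 the CA1 to DG difference was 0.024 (SE 0.060) and for Rps19bp1 -0.039 (SE 0.049). Rpl22 was lower in CA1 than in DG in IonProton (log2 -0.35, adjusted p = 0.0267) but differed by 0.005 (SE 0.039) in Illumina. Rpl10, which completes the large subunit, passed only for CA1 against DG (0.11, SE 0.036, adjusted p = 0.00572), as did Rpl41 (0.16, adjusted p = 0.00367), Rpl39 on chromosome X (0.12, adjusted p = 0.0231), Rps4x (0.14, adjusted p = 0.00731), Rps27 (0.19, adjusted p = 0.000769) and Rps27a on chromosome 14 (0.16, adjusted p = 0.00615). None of these 6 passed in IonProton.

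Markers of other cell types differed between CA1 and DG. In Illumina all 8 oligodendrocyte, all 8 endothelial and all 9 microglial marker genes were higher in CA1 than in DG at adjusted p under 0.05, as were 6 of 8 astrocyte, 4 of 5 blood and 3 of 5 choroid plexus markers, and 7 of 8 neuronal markers were lower. For CA3 against DG, all 8 oligodendrocyte, all 9 microglial, 5 of 8 endothelial, 5 of 8 astrocyte, 2 of 5 choroid plexus and 1 of 5 blood markers were higher in CA3, and 1 neuronal marker was higher and 1 lower. Between CA1 and CA3, all 4 tested DG markers were called higher in CA1 (median log2 1.64 in Illumina and 1.68 in IonProton). The summed DG markers had an Illumina median of 1892 normalised reads in CA1 and 484 in CA3. In that comparison 7 neuronal markers were lower and 1 higher in CA1. Also higher in CA1 were 2 endothelial markers and 1 choroid plexus marker, and 1 astrocyte marker was lower. Of the 5 choroid plexus markers 4 passed there by edgeR and 3 by DESeq2. There 0 oligodendrocyte and 0 microglial markers passed by limma, edgeR or DESeq2, with 0 and at most 1 at an unadjusted p under 0.05. The summed oligodendrocyte markers ranged from 75784 to 296221 normalised reads in CA1, 55950 to 388601 in CA3 and 45845 to 221617 in DG. Summed choroid plexus markers reached 151261 in 1 CA1 library, against a CA1 median of 279. No marker list held a gene at 0 in all libraries. The part of tissue composition in the ribosomal protein differences was not tested.

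Subfield differences were also fitted within each number series. In the 18 rats below 9000, 17 of 83 entries were called for CA1 against CA3, all higher in CA1, against 21.4% of genes, and the Illumina median was 0.15. They included the large-subunit proteins Rpl4, Rpl5 and Rpl9 and the small-subunit proteins Rps3, Rps20 and Rps23. In the 16 rats from 9000 up none was called by limma, against 3.88% of genes. These rats held most of the libraries nearest to another subfield, which were kept in the fit. There the Illumina median was 0.019, with 1 entry at an unadjusted p under 0.05. Between CA3 and DG, 2 entries were called in the lower series (22.9% of genes), Rpl4 and Rpl15, both lower in CA3. In the upper series 7 were called (21.6% of genes), all higher in CA3, among them Rplp2, Rpl17 and Rps16. The Illumina medians were 0.007 and 0.15. Between CA1 and DG the medians were 0.13 and 0.17, with 2 entries (15.4% of genes) and 6 entries (20.5%) called. Those called below 9000 were Rpl26 and Rpl37 on chromosome 2. Those called from 9000 up were Rpl7l1, lower in CA1, and Rplp0, Rplp2, Rps15, Rps16 and Rps3a. Rpl23, Rps18 and the chromosome 10 entry of Rpl37 were called in neither series alone.

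A limma test of the difference itself was added after these values were seen. The CA1 to CA3 difference was unequal between the series for 13 of 83 entries in Illumina, where 39.7% of genes passed, and for 17 of 116 in IonProton, where 15% passed. The CA3 to DG difference was unequal for 21 entries in Illumina, against 48.4% of genes, and for 13 in IonProton, against 17.1%. With all libraries, members passed no more often than genes did in these 4 tests. Between CA1 and DG 0 entries passed by limma in either table, where 0.839% and 0.203% of genes did, with 0 entries in Illumina and 18 of 116 in IonProton at an unadjusted p under 0.05, where 14.8% and 21.1% of genes had one. Without the 13 libraries nearest to another subfield, 53 entries passed between CA1 and CA3 and 63 between CA3 and DG in Illumina, where 42.2% and 47.2% of genes passed. In IonProton 13 and 24 of 116 entries did, where 12.2% and 19.6% of genes passed.

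Rpl9, a large-subunit protein, is an example. Its CA1 to CA3 log2 difference in Illumina was 0.24 (SE 0.031) in the rats below 9000 and -0.014 (SE 0.060) in the others. Its CA3 to DG difference was -0.18 (SE 0.031) and 0.17 (SE 0.060). Of the 3 called members, Rps3 gave 0.21 and 0.10, Rpl30 0.20 and 0.093, and Rps3a 0.16 and 0.079 in Illumina. In IonProton Rps3a gave 0.65 in the lower series and -0.093 in the upper. The number series and whatever else differed between those rats cannot be told apart from the labels.

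**Figure D4:**
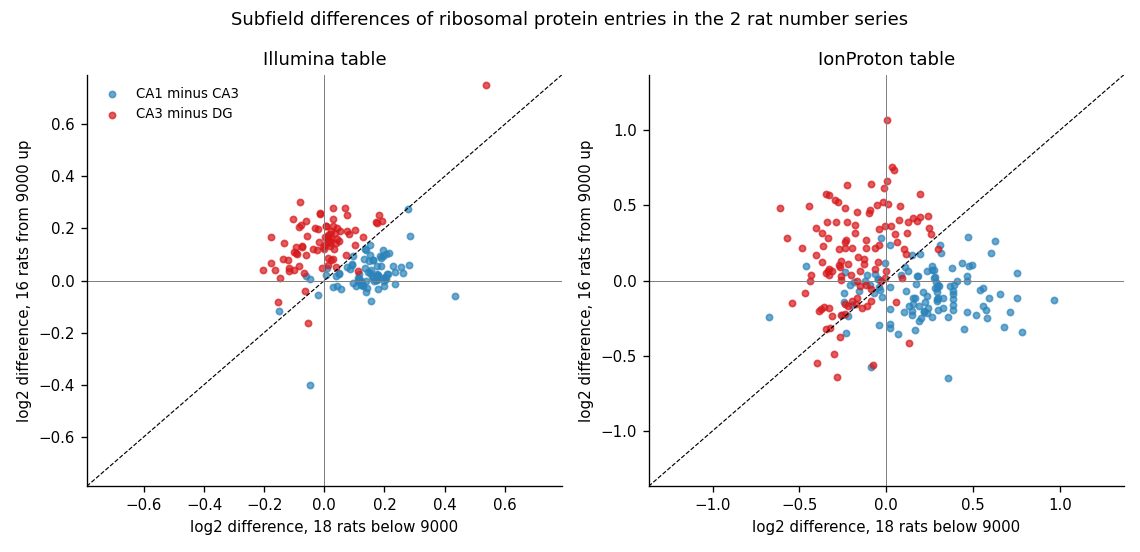
Each point is 1 entry, with its log2 subfield difference in the 18 rats below 9000 on the horizontal axis and in the 16 rats from 9000 up on the vertical axis, and the dashed line marks equal differences. Most CA1 minus CA3 points lie below the line, with Illumina medians of 0.15 and 0.019, and most CA3 minus DG points lie above it, with Illumina medians of 0.007 and 0.15.

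Rats were paired across subfields because each gave all 3. With the rat as a block, 5 members were called between CA1 and CA3 (Rpl23 and Rpl37 on chromosome 2 in addition), where 15.8% of genes were called. Between CA1 and DG 8 were called (Rpl32 on chromosome 4 in addition) against 29.2% of genes, and between CA3 and DG 3 (Rplp0 and Rpl32, both higher in CA3, in addition) against 30.8%.

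The second comparison asked whether members differ with age or memory within a subfield. It followed the design of a seed list at p under 0.01 in Illumina and a one-sided retest at p under 0.05 in IonProton, with 82, 84 and 83 entries tested in CA1, CA3 and DG. No member was called by limma in any of the 12 comparisons of OG with Y, OB with Y, OB with OG and all aged rats with Y, and none had a p under 0.01 in Illumina. Between 0 and 3 entries per comparison had an unadjusted p under 0.05 in Illumina, and 0 passed adjustment there. Of all genes 6.05%, 1.75% and 3.6% had such a p for OB against OG in CA1, CA3 and DG, and between 2.89% and 7.81% in the comparisons with young rats. Of all genes 0.824% were called in CA1, 0.365% in CA3 and 1.06% in DG for aged against young rats. For OB against OG the shares were 0.585%, 0.0351% and 0.136%, for OB against Y 0.81%, 0.344% and 0.97%, and for OG against Y 0.655%, 0.281% and 0.649%. Run on recovered reads, edgeR and DESeq2 also called 0 members in each comparison, with 0 to 2 and 0 to 4 entries at an unadjusted p under 0.05.

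The precision of these fits bounds the changes. For aged against young rats the median SE over entries was 0.063 in CA1, 0.089 in CA3 and 0.050 in DG. The 95% interval lay within a log2 change of 0.5 either way for 81 of 82, 79 of 84 and 79 of 83 entries. A miss of the threshold does not show equal levels.

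Medians were small, and their sign was not shared by all tables. For aged against young rats the Illumina medians were 0.061 (CA1), -0.032 (CA3) and 0.010 (DG), with 0.003, -0.079 and 0.15 in IonProton and 0.019, 0.019 and 3.6e-05 in WT. In Illumina the sign in CA3 rested on 1 library: without the CA3 library of the OB rat R9875 the median was 0.004, with 45 of 84 entries above 0. In IonProton it was then -0.11 over the same entries, with 16 above 0. In rats below 9000 the DG median was -0.022. In CA1 72 of 82 entries were above 0 in Illumina and 58 of 116 in IonProton, and over the entries tested in Illumina the IonProton median was -0.028. Rplp2, chosen after its values were seen, averaged 526 ± 62.1 in aged (n = 24) and 479 ± 77.9 in young rats (n = 10), a log2 difference of 0.14 (SE 0.070, adjusted p = 0.81 by limma). The groups overlapped.

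Between OB and OG in CA1, 67 of 82 entries were above 0 in Illumina (median 0.034) and 72 of 81 in WT (median 0.041), while 90 of 116 were below 0 in IonProton (median -0.10). In CA3 83 of 84 entries were below 0 in Illumina (median -0.13), and 101 of 116 in IonProton (median -0.17), but 46 of 81 in WT (median -0.005). No entry passed adjustment, and 2 in Illumina (1.75% of genes), 5 in IonProton (2.32% of genes) and 0 in WT had an unadjusted p under 0.05. A single library weighed on the Illumina value. Without the CA3 library of the OB rat R9875, 74 of 84 were below 0 in Illumina and the median was -0.053, while over the same entries the IonProton median was -0.22, with 11 above 0. In rats below 9000 the median was 0.010 in Illumina and -0.10 in IonProton, and in rats from 9000 up it was -0.25 and -0.14. The 2 entries with a p under 0.05 in Illumina were Rps19bp1 (101.8 ± 20.3 in OB, 117 ± 11.7 in OG, n = 12 each, log2 -0.22, adjusted p = 1.00 by limma) and Rps27l2 (30.0 ± 6.04 and 35.7 ± 5.19, log2 -0.26, adjusted p = 1.00). In IonProton Rps19bp1 differed by 0.31.

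In DG the medians of OB against OG were -0.013 in Illumina, 0.064 in IonProton and -0.048 in WT. The 2 entries with an unadjusted p under 0.05 in Illumina were those with most reads. Rpl3 averaged 5084 ± 239 in OB and 5374 ± 355 in OG (log2 -0.079, SE 0.034, adjusted p = 1.00 by limma), and Rpl4 averaged 4986 ± 210 and 5242 ± 313 (log2 -0.071, SE 0.030). In IonProton they differed by -0.026 and 0.008. In IonProton 4 comparisons, which share the young rats, had over 5 entries at an unadjusted p under 0.05, none past adjustment. In DG these were 13 of 114 entries for OB against Y (7.62% of genes), all above 0, and 11 for aged against Y (8.2% of genes). In CA1 they were 13 of 116 for OG against Y (4.34% of genes) and 14 for aged against Y (3.3% of genes). For OB against Y in DG the median was 0.16 in IonProton and 0.001 in Illumina, where 0 entries had such a p by limma. Rps4y2 was the 1 entry with a p under 0.05 between OB and OG in CA1 in Illumina, at 27.7 ± 8.25 in OB and 20.03 ± 6.47 in OG. Its log2 difference was 0.46 (SE 0.17, adjusted p = 0.70 by limma) in Illumina, 0.71 in IonProton and 0.48 in WT. In the rats below 9000 it was the 1 member that met the call rule (log2 0.71, SE 0.22, p = 0.00425 by limma, adjusted p = 0.735), where 0.227% of genes did.

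**Figure D5:**
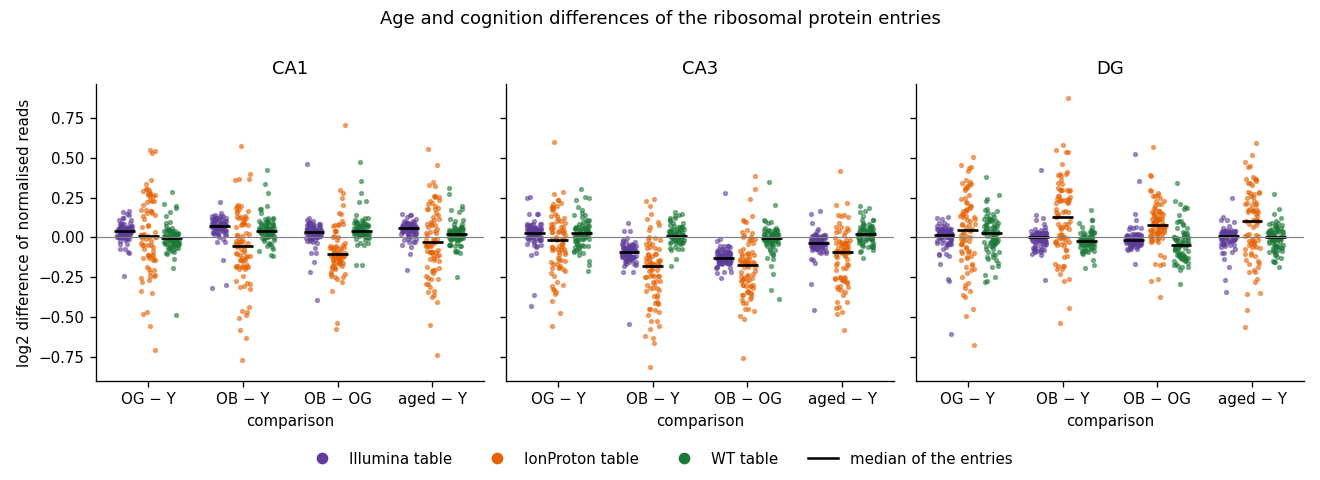
The vertical axis gives the log2 difference of normalised reads between groups within a subfield for the entries tested in Illumina, in each of the 3 tables, with bars for medians over these entries. No entry passed the adjusted threshold in Illumina, and most CA3 differences of OB from OG lie below 0 in Illumina and IonProton but centre near 0 in WT.

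Age and memory effects were then compared between subfields in 1 fit of all groups. Of 83 entries 0 passed an adjusted p of 0.05 in Illumina for any of the 6 differences, as did 0 of the 14179 genes by limma. The difference between CA1 and CA3 in the effect of OB against OG had a median of 0.16 over the entries, with 78 of 83 above 0 and 10 at an unadjusted p under 0.05, where 5.22% of genes had one. With the rat as a random effect 19 entries did, where 7.51% of genes had one. In IonProton its median was 0.068 and in WT 0.050, with 1 and 0 entries at that p. Without the CA3 library of R9875 the Illumina median was 0.087 and 1 entry had such a p, where 4.57% of genes did, and the IonProton median was 0.095. The difference between CA1 and DG in the effect of OB against OG had a median of 0.050 in Illumina, -0.16 in IonProton and 0.091 in WT, with 0, 1 and 11 entries at that p, where 3.74%, 2.98% and 9.23% of genes had one. In the other 4 differences 1 entry of 83 had such a p in Illumina for each, and 0 to 4 in the other tables.

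Of the ribosomal proteins whose symbols the rule does not take, Rpsa, Fau and Gnb2l1 (Rack1) were each higher in CA1 than in DG at adjusted p under 0.05 in Illumina, and Fau, made as a fusion with a ubiquitin-like protein, was called in both tables (0.21 and 0.34). Of 71 tested mitochondrial ribosomal proteins 2 were called higher and 5 lower in CA1 than in DG, where 13.1% and 13.2% of all genes were, with an Illumina median of 0.010. Mrpl34 was higher by 0.21 and Mrps27 lower by 0.18. Of 44 tested ribosome assembly factors 2 were called higher and 8 lower in CA1 than in DG (median -0.059), against the same shares of genes. Between CA3 and DG 1 was higher and 6 lower (median -0.047), where 27.9% of genes were called and 14% were lower. Tsr1, needed for small-subunit maturation, was lower than in DG by 0.42 in CA1 and 0.47 in CA3, and Sbds, which releases eIF6 from the large subunit, was higher by 0.25 in both.

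Of 37 tested initiation factors 9 were called lower and 0 higher by limma in CA3 than in DG, where 14% of genes were lower, and 1 was higher and 2 lower in CA1 than in DG. Those lower in CA3 included Eif4a3 by 0.21, Eif3b by 0.098 and the cap-binding protein Eif4e by 0.093. Of 11 elongation factors Eef1a1, which brings transfer RNA to the ribosome, was higher in CA1 than in DG by 0.098 and Eif5a lower by 0.13. Of 23 genes of the mTORC1 axis 4 were called higher and 6 lower in CA1 than in DG, against 13.1% and 13.2% of genes. Deptor, an mTOR inhibitor, was lower than in DG by 0.78 in CA1 and 0.70 in CA3, and Eif4ebp1, which holds back Eif4e, was higher in CA1 than in CA3 by 0.35 and than in DG by 0.19. With age or memory 1 of these genes was called, the Rps6k gene Rps6ka2 for OB against OG in CA1, where 0.585% of all genes were. Its log2 difference was 0.36 (SE 0.12, p = 0.00337, adjusted p = 0.63 by limma) in Illumina and 0.41 in IonProton.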

How the data were processed

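Hippocampal subfields CA1, CA3 and DG of 34 rats were sequenced in 3 sets. The deposited values (signal) are normalised reads, that is, gene counts which the authors divided by size factors, separately in each table. The submitters' processing notes name bcl2fastq 2.17, cutadapt 1.8.3, STAR 2.5, featureCounts 1.4.4, DESeq2 1.16.1 and rn5. The study's methods give another DESeq2 version for its tests, and TopHat2 and Bowtie2 for IonProton reads. The aligner and library type of the WT table are not given in the sources used here. Coordinates of entries are those of the tables, and promoters are from GRCr8.

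Whole reads were recovered from 100% of values above 0 (tolerance 0.01 reads), which gave each library's depth. Genes with a mean of at least 10 were fitted with limma 3.58.1 (trend, log2 of value plus 1, R 4.3.3), with Benjamini-Hochberg adjustment over all tested genes. Folds are therefore on the log2(value + 1) scale, which understates changes of low genes. Groups came from the suffixes of the sample titles, and rats are separate animals. Subfield calls needed an adjusted p under 0.05 in both poly-A tables, and age or memory calls a p under 0.01 in Illumina and a one-sided p under 0.05 in IonProton. 48 genes of each table had no symbol. Scripts were tested on simulated data. Alternatives were a pseudocount of 0.1, no filter, library-total and quantile scaling, edgeR 4.0.16 and DESeq2 1.42.0 on recovered reads, WT as second table, each number series alone or as a covariate, the rat as a block, and sets of libraries left out. Summed entries, the series interaction and leaving out the CA3 library of R9875, also from the differences between subfields, were added after the data were seen.

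Subfields were paired because they come from the same animal. Deviations from the group means had median correlations over 34 rats of 0.087 between CA1 and CA3, 0.189 between CA1 and DG and -0.032 between CA3 and DG. Named entries were, per comparison, up to 3 called with the largest change each way, up to 3 past adjusted p in Illumina, the 3 highest and 3 lowest means, and a fixed list of stalk, paralog and ubiquitin-fusion genes. The values of some single genes are not reported here. Members and lists were chosen with earlier results of these data known.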

Additional observations from a re-analysis of the deposited data

Results flagged for a closer look

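In the groups of 10 young rats, the end value of a group was compared with its neighbour for 111 groups, and 7 had a gap over 0.466 of the range (Dixon's 95% value), where about 1 in 20, or 5.55, is given by chance. The WT share of reads on the entries was 0.909% in the CA3 library of R9876, whose Illumina value of Rplp0, the stalk base, was also apart at 5314 normalised reads. R2175 stood apart in CA1 for Rpl10 (2823). Rpl22l1 stood apart in the CA1 library of R9877 (387), Rpl32 on chromosome 6 in that of R9879 (42.2) and Rpl5l1 in that of R9881 (72.8). Rpl7l1 stood apart in the DG library of R9881 (279.5).

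The subfield difference itself differed between the rat number series for 13 entries between CA1 and CA3 and for 21 between CA3 and DG of 83 in Illumina, by the limma interaction test. Of all genes 39.7% and 48.4% passed the same tests, a larger share than of the entries. Without the 13 libraries nearest to another subfield 53 and 63 entries passed, against 42.2% and 47.2% of genes.

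Outside the protein-coding entries, 4 rows of other biotypes match the name rule. The median library held 23 reads on them in Illumina, 233.5 in IonProton and 28 in WT, more than a count of 0 allows (3 reads).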

How the results depend on the processing

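Shares in brackets are those of all genes called under the same setting. Between CA1 and CA3 (3 members called), 5 were called with library-total scaling (14.2%), edgeR (15.2%) or DESeq2 (16.2%), 20 with WT as the second table (23.1%), 17 in rats below 9000 (21.4%) and 0 by limma in rats from 9000 up (3.88%). Members past adjusted p in Illumina (28) numbered 15 without the 7 deeply sequenced rats (28.4%), 63 below 9000 (55.4%) and 0 from 9000 up (13.7%). Between CA1 and DG (7 called), 11 were called without the deep rats (26%), 33 with WT (38.7%) and 2 below 9000 (15.4%), and those past adjusted p in Illumina fell from 65 to 33 from 9000 up (36.3%). Between CA3 and DG (1 called), 4 were called with DESeq2 (31.7%), 6 without the deep rats (27.7%), 8 with WT (39.3%), 2 below 9000 (22.9%) and 7 from 9000 up (21.6%). Those past adjusted p in Illumina there (26) numbered 17 with no filter (36.1%), 13 with library-total scaling (56.1%) and 42 without the libraries nearest another subfield (60%). They were 23 higher and 3 lower in CA3 over all rats, but 7 of 22 were higher below 9000. The rat as a replicate block gave 5, 8 and 3 calls, and 19 rather than 10 entries at an unadjusted p under 0.05 for the difference between CA1 and CA3 in the effect of OB against OG. Without the CA3 library of R9875 and without the block that count was 1. For OB against OG in CA1, 1 member was called below 9000. The cause of these changes was not tested.

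No called member changed sign in Illumina, and of 188 repeated Illumina medians 15 changed sign, 0 of them between subfields. In CA3 the median of OB against OG went from -0.13 to 0.010 below 9000, that of OG against Y from 0.030 to -0.010, and that of aged against Y from -0.032 to 0.004 without the CA3 library of R9875. The IonProton median of CA1 against CA3 was 0.28 below 9000 and -0.081 from 9000 up. The others were OB against OG in CA1 (-0.010 from 9000 up) and comparisons with Y in DG.

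With reads off the mitochondrial chromosome as denominator, the median share in CA1, CA3 and DG was 0.967%, 0.882% and 0.860% in Illumina and 0.888%, 0.835% and 0.817% in WT. With coding reads off it, the shares were 0.972%, 0.887% and 0.865%, and 0.895%, 0.841% and 0.822%. Without the libraries nearest another subfield, the CA3 share correlated at 0.83 between Illumina and IonProton and at 0.58 between Illumina and WT. Repeats of single named members stayed on their side of the threshold 111 times and fell short of it 32 times, 8 of them in rats from 9000 up. Groups hold 10 to 12 rats, and depth limits the entries with few reads.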
